A study of Mus musculus with 13 samples.

Results

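Metallothioneins are small cysteine-rich proteins that bind zinc and copper. The genes described are 4 of the 55416 gene IDs in a mouse brain RNA-seq count table, taken by symbol: Mt1 and Mt2, the metal-inducible metallothioneins, Mt3, the neural form, and Slc30a1, which encodes the zinc exporter ZnT1. All 4 passed the filter on low counts, which kept 22507 genes. The study deleted Pdcd10 (also called Ccm3), a gene whose loss causes cerebral cavernous malformations, in brain endothelial cells and kept the mice in low or ordinary oxygen. Polyadenylated RNA of brain tissue was sequenced, with 1 library per sample.

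The KO hypoxia group (n = 4) was Slco1c1-iCreERT2;Pdcd10fl/fl mice kept at 12% O2 for 7 days, and the flox hypoxia group (n = 3) was Pdcd10fl/fl mice kept in the same way. The KO normoxia group (n = 3) had the same Cre and floxed alleles at 21% O2, and the flox normoxia group (n = 3) was Pdcd10fl/fl mice at 21% O2. All 4 groups carried the floxed allele. The Cre is driven by Slco1c1 and activated by tamoxifen, and the KO mice received 50 µg of 4-hydroxytamoxifen on postnatal day 1. The labels leave unclear whether the flox mice were injected, and they give no age at collection. The labels call every mouse male, yet Xist exceeded the summed Y-linked transcripts in 2 KO hypoxia, 0 flox hypoxia, 1 KO normoxia and 1 flox normoxia libraries. The deposited totals ran between 42090437 and 71216636 counts per library. The labels do not say that replicates came from separate animals, so p-values measure the spread between these samples. Pdcd10 itself did not pass in KO against flox brains, with log2 fold changes of -0.09 ± 0.068 in hypoxia and -0.02 ± 0.072 in normoxia (edgeR's adjusted p = 0.47 and 0.962). The labels do not give the deleted stretch, so its count in brain tissue does not check them. Among the libraries 2 stood apart in cell markers: KO hypoxia replicate 1 had 17600 CPM of summed erythroid markers, against 3630 to 4380 CPM in the other KO hypoxia libraries, and KO normoxia replicate 2 had 11.5 CPM of summed choroid plexus markers, against 315 and 347 CPM in the other KO normoxia libraries. In whole brain tissue, fewer cells of a type and less RNA per cell cannot be told apart.

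Mt1 and Mt2 are switched on by zinc through the factor MTF-1, which binds metal response elements, and they also respond to glucocorticoids, oxidative stress and inflammatory cytokines. In brain they are found mostly in astrocytes and vascular cells. Mt3 responds little to metals, and ZnT1 moves zinc out of the cell and is itself a target of MTF-1.

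The promoters of the 4 genes are shown because the metal response element is the feature that Mt1, Mt2 and Slc30a1 are known to share. Each line is the 250 bases before the RefSeq start on the + strand of GRCm38.p6, with matches to the metal response element core in capitals (TGCACNC or TGCGCNC, either strand). The windows are chr8:94178839-94179088 for Mt1, chr8:94172368-94172617 for Mt2, chr8:94152357-94152606 for Mt3 and chr1:191906531-191906780 for Slc30a1.
Mt1: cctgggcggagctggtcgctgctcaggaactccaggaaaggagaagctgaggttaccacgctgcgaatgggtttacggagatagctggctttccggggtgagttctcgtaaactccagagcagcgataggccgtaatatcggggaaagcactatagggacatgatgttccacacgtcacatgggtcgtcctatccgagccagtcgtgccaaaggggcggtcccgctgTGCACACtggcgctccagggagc
Mt2: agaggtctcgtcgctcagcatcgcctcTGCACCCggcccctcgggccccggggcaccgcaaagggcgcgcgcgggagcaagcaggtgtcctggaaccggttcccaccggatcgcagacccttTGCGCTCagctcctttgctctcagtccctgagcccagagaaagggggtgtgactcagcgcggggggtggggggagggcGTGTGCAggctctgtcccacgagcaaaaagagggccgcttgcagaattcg
Mt3: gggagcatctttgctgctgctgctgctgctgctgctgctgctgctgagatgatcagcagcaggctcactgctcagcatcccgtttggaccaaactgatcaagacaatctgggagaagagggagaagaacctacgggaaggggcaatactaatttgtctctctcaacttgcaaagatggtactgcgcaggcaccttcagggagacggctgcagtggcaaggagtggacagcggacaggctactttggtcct
Slc30a1: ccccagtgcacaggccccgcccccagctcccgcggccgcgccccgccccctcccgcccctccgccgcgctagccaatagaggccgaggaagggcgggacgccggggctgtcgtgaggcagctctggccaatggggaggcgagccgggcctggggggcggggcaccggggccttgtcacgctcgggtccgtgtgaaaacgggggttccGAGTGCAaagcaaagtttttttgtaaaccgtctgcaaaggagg

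Mt2 held 3 matches in this window, Mt1 held 1, Slc30a1 held 1 and Mt3 held 0. Of 32851 mouse promoter windows of the same length, 21.4% held at least 1 match and 1.26% held at least 3. The Mt1 match lay 23 to 17 bases before the start. The full palindromic glucocorticoid response element and the letters TTCNNNGAA (a STAT site) were in none of the 4 windows, and stood in 0.00913% and 7.02% of all windows. The antioxidant element TGACNNNGC was in the Mt2 and Slc30a1 windows, and in 10.2% of all. The hypoxia element core ACGTG was in the Mt1 window and in 16.6% of all. Its other form, GCGTG, was in the windows of Mt1, Mt2 and Slc30a1 and in 28.2% of all. It overlapped the last metal response element match in Mt2 and the antioxidant element in Slc30a1. The longer RefSeq window, of 250 bases before to 50 after the start, held more metal response element matches. They numbered 4 in Mt2, 3 in Mt1, 2 in Slc30a1 and 1 in Mt3. Of all such longer windows 25.7% held at least 1 match and 1.97% at least 3. In Mt1, matches also lay at bases 3 to 9 and 21 to 27 counted from the start. The counts in the shorter window, including the 1 of Mt1 and the 0 of Mt3, therefore hold only before the RefSeq start used here. Other starts of these genes were not examined, so the counts do not describe their whole promoters. A match is a description of letters, not a bound site.

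Per length, Mt3 was the most abundant of the 4 in each group, with a mean of 149 RPKM (counts scaled to gene length and library size) in hypoxic KO, 131 in hypoxic flox, 138 in normoxic KO and 139 in normoxic flox brains. Mt1 followed with 119, 87.1, 101 and 89 RPKM in the same groups. Mt2 had 18.8, 12.5, 14.8 and 13 RPKM, and Slc30a1 had 9.6, 8.28, 8.34 and 7.51 RPKM. The lengths implied by the deposited RPKM were 1246 bases for Mt1, 588 for Mt2, 1066 for Mt3 and 5244 for Slc30a1. These equal all annotated exon bases of each gene in GRCm38. The lengths of the transcripts present were not determined, so levels compared between genes depend on these values. By mean RPKM in KO hypoxia, Mt3 ranked 198 and Mt1 ranked 259 of 55416 genes. Mt4, the fourth metallothionein gene, had 0 counts in all 13 libraries, which allows up to 0.0713 CPM in the shallowest. The level of Mt2 against Mt1 is uncertain: 432 of the 588 exon bases of Mt2 (73.5%) lie over the antisense gene Gm45774 in the GRCm38 annotation, and the strand setting of the counting is not given in the sources used here. Gm45774 itself had 16 to 76 counts per library. Slc30a1 shares 468 of 5244 exon bases (8.92%) with the antisense gene 1700034H15Rik, while the exons of Mt1 and Mt3 overlap no other gene's.

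With Pdcd10 deleted and oxygen low, Mt1, Mt2 and Slc30a1 were higher than in flox brains at the same oxygen, and Mt3 did not pass the test. The differences were modest: 1.34-fold for Mt1, 1.47-fold for Mt2 and 1.14-fold for Slc30a1. Of all 22507 genes tested, 9.06% passed in this comparison and 6.78% passed as higher. Values are given as CPM, counts scaled to library size with edgeR's TMM factors. Adjusted p-values come from edgeR's quasi-likelihood test with Benjamini-Hochberg adjustment over all tested genes, at a threshold of 0.05.

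Mt1 had 153, 136, 131 and 167 CPM in KO hypoxia libraries, against 113, 114 and 102 CPM in flox hypoxia libraries. Every KO hypoxia library lay above every flox hypoxia library, as was so for 11.5% of all tested genes in that direction. The log2 fold change was 0.42 ± 0.096 (SE), or 1.34-fold with a 95% interval of 1.16 to 1.55, and edgeR's adjusted p was 0.0105. It was lost without flox hypoxia replicate 3 (edgeR's adjusted p = 0.0613).

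Mt2 had 12.5, 11.1, 9.36 and 10.8 CPM in KO hypoxia libraries, against 8.08, 7.27 and 6.88 CPM in flox hypoxia libraries. Again the groups did not overlap, and the KO library lowest for Mt2 was also the lowest for Mt1. The log2 fold change was 0.56 ± 0.121 (SE), or 1.47-fold with an interval of 1.23 to 1.76, and edgeR's adjusted p was 0.00795. These levels rest on 288 to 736 counts per library, the fewest of the 4 genes.

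Slc30a1 had 48.8, 47.5, 51.4 and 51.2 CPM in KO hypoxia libraries, against 46.3, 41.9 and 43.2 CPM in flox hypoxia libraries. The groups did not overlap, though the highest flox hypoxia library came close to the lowest KO hypoxia library. The log2 fold change was 0.18 ± 0.048 (SE), or 1.14-fold with an interval of 1.06 to 1.22, and edgeR's adjusted p was 0.0237. It was lost without flox hypoxia replicate 2 (edgeR's adjusted p = 0.14), flox hypoxia replicate 3 (0.0927) or KO hypoxia replicate 3 (0.0572). With a term for the Xist-based split it was 0.16 with an edgeR adjusted p of 0.0822.

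Mt3 had 136, 144, 154 and 190 CPM in KO hypoxia libraries, against 146, 145 and 132 CPM in flox hypoxia libraries. The groups overlapped, and KO hypoxia replicate 4 stood highest. The log2 fold change was 0.15 ± 0.103 (SE), or 1.11-fold with an interval of 0.952 to 1.29, and edgeR's adjusted p was 0.441. Without KO hypoxia replicate 4 the log2 fold change was 0.043.

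Without KO hypoxia replicate 1, the library high in erythroid markers, Mt1, Mt2 and Slc30a1 still passed in hypoxia, with log2 fold changes of 0.40 ± 0.102, 0.49 ± 0.121 and 0.19 ± 0.052 and edgeR adjusted p-values of 0.0256, 0.0227 and 0.0368.

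**Figure D1:**
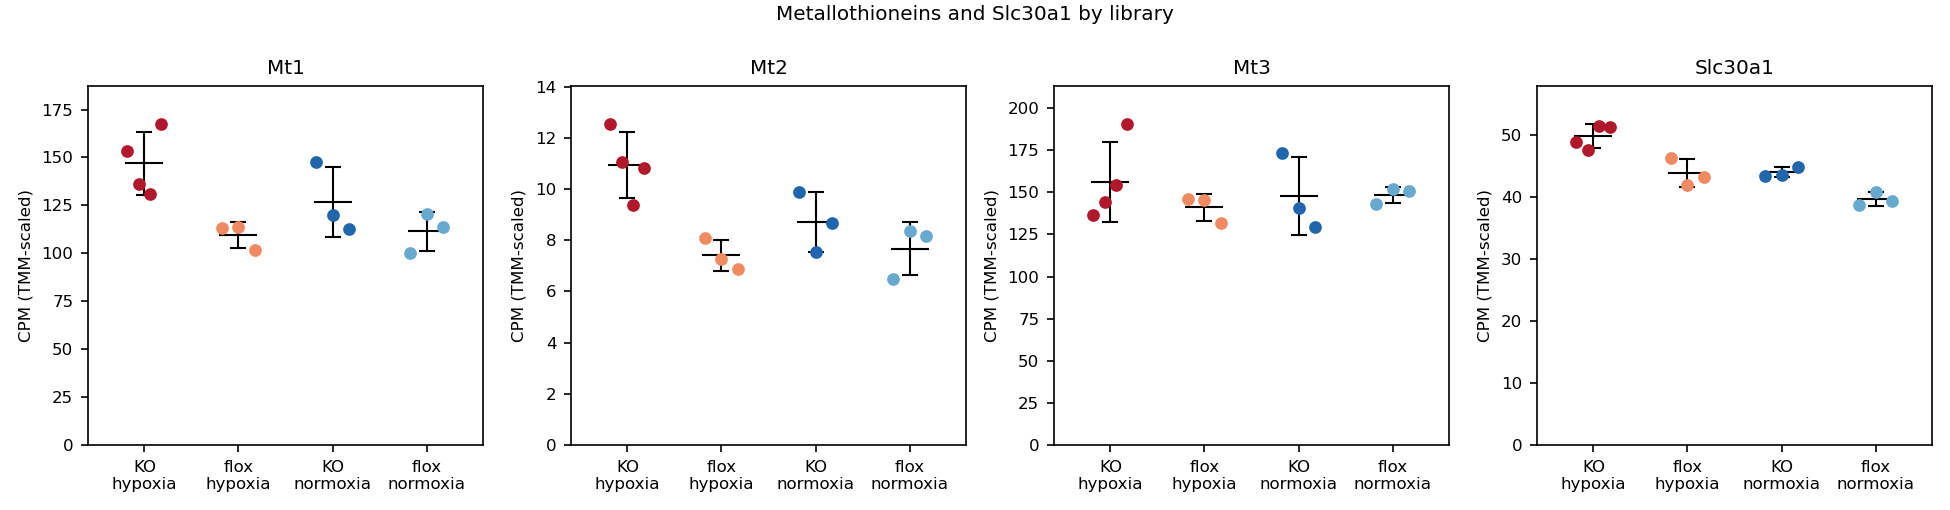
CPM of Mt1, Mt2, Mt3 and Slc30a1 in each library (points) by group, with the group mean (long bar) and SD (error bar); axes start at 0. For Mt1, Mt2 and Slc30a1 the 4 KO hypoxia libraries lie above the 3 flox hypoxia libraries, while for Mt3 they overlap.

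In ordinary oxygen none of the 4 genes passed between KO and flox brains, where 2.33% of tested genes did. Mt1 had 148, 120 and 113 CPM in KO normoxia libraries, against 100, 120 and 114 CPM in flox normoxia libraries, and only KO normoxia replicate 1 stood clear of the flox libraries. Its log2 fold change was 0.18 ± 0.102, with an edgeR adjusted p of 0.465 and an interval of 0.978 to 1.32-fold. Without KO normoxia replicate 1 it was 0.062, and without flox normoxia replicate 1 it was 0.111. Mt2 had 9.89, 7.54 and 8.69 CPM in KO normoxia, against 6.48, 8.36 and 8.16 CPM in flox normoxia. Those groups overlapped, and the log2 fold change of Mt2 was 0.18 ± 0.128 (edgeR's adjusted p = 0.606, 0.937 to 1.37-fold). It was 0.078 without KO normoxia replicate 1, 0.07 without flox normoxia replicate 1 and 0.276 without KO normoxia replicate 2, the library low in choroid plexus markers. Mt3 had 174, 141 and 129 CPM in KO normoxia, against 143, 152 and 151 CPM in flox normoxia, a log2 fold change of -0.01 ± 0.109 (edgeR's adjusted p = 0.988). Slc30a1 was the exception in its spread, with 43.3, 43.6 and 44.8 CPM in KO normoxia, against 38.7, 40.8 and 39.3 CPM in flox normoxia. Its groups did not overlap, as was so for 10.5% of all tested genes in that direction. Its log2 fold change was 0.15 ± 0.051 (1.03 to 1.19-fold), with an unadjusted edgeR p of 0.0102 and an adjusted p of 0.179.

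Low oxygen within a genotype moved none of the 4 genes past the threshold. Between hypoxia and normoxia 0.897% of tested genes passed in KO brains and 0.0222% passed in flox brains. In KO brains Mt1 averaged 147 ± 16.6 CPM in hypoxia (SD, n = 4) and 127 ± 18.4 CPM in normoxia (SD, n = 3), a log2 fold change of 0.21 ± 0.095 (edgeR's adjusted p = 0.324). Mt2 averaged 10.9 ± 1.29 CPM in KO hypoxia and 8.71 ± 1.17 CPM in KO normoxia, a log2 fold change of 0.33 ± 0.119 (edgeR's adjusted p = 0.207). Both had intervals above 1, at 1.01 to 1.33-fold for Mt1 and 1.06 to 1.5-fold for Mt2, before any adjustment over genes. Leaving out 1 library moved Mt1 to as low as 0.132 (KO normoxia replicate 3 left out) and Mt2 to as low as 0.234 (replicate 2 of that group left out). The highest values, 0.334 for Mt1 and 0.432 for Mt2, came when replicate 1 of that group was left out. Slc30a1 averaged 49.7 ± 1.91 CPM in KO hypoxia and 43.9 ± 0.795 CPM in KO normoxia, a log2 fold change of 0.18 ± 0.047 (edgeR's adjusted p = 0.0846). Its libraries did not overlap, as was so for 6.59% of tested genes in that direction, and DESeq2 called it (adjusted p = 0.0151). So did edgeR without KO hypoxia replicate 2 (adjusted p = 0.0444). Mt3 differed by 0.08 ± 0.102 on the log2 scale (edgeR's adjusted p = 0.792).

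In flox brains Mt1 averaged 109 ± 6.79 CPM in hypoxia and 112 ± 10.3 CPM in normoxia, and Mt2 averaged 7.41 ± 0.614 CPM in hypoxia and 7.67 ± 1.03 CPM in normoxia (SD, n = 3 each). Their log2 fold changes were -0.03 ± 0.102 and -0.05 ± 0.13, with edgeR adjusted p-values of 0.995 and 0.989. Slc30a1 averaged 43.8 ± 2.26 CPM in flox hypoxia and 39.6 ± 1.08 CPM in flox normoxia, without overlap between the libraries. Non-overlap in that direction held for 6.56% of tested genes, and edgeR's adjusted p was 0.567 for a log2 fold change of 0.15 ± 0.051.

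Whether the genotype difference itself depended on oxygen was tested by the interaction term. The KO-to-flox difference of Mt2 was larger in hypoxia by 0.38 ± 0.176 on the log2 scale (edgeR's unadjusted p = 0.0464, adjusted p = 0.684). For Mt1 the term was 0.24 ± 0.14 (edgeR's adjusted p = 0.734), for Mt3 0.15 ± 0.15 (0.862) and for Slc30a1 0.03 ± 0.069 (0.94). edgeR called 0 of 22507 genes for this term, with 1635 at an unadjusted p under 0.05, and DESeq2 called 3. The effect in hypoxia is therefore not shown to differ from that in normoxia for any of the 4 genes.

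**Figure D2:**
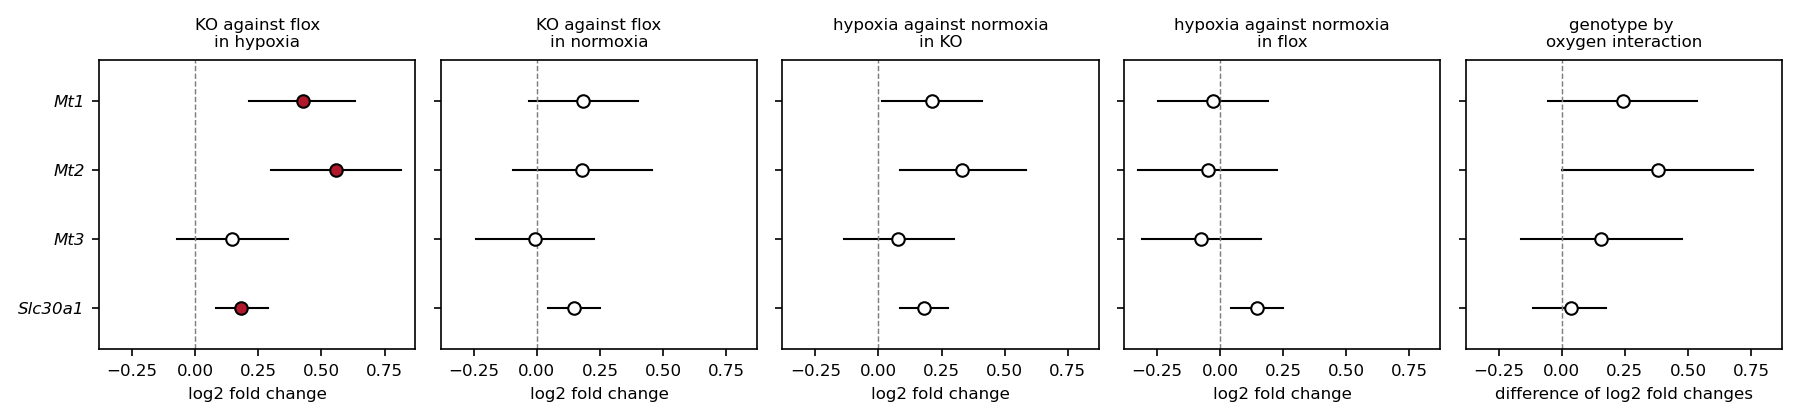
Log2 fold changes (points) with 95% intervals (bars) of the 4 genes in 4 comparisons and the interaction term, from edgeR; filled points passed an adjusted p of 0.05. Filled points occur only for Mt1, Mt2 and Slc30a1 in KO against flox in hypoxia.

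The order of the group means was the same for Mt1 and Mt2: KO hypoxia, KO normoxia, flox normoxia, flox hypoxia. No neighbouring groups in that order passed a test. Slc30a1 had KO hypoxia highest, KO normoxia and flox hypoxia close together (43.9 ± 0.795 and 43.8 ± 2.26 CPM, log2 difference 0.00 ± 0.051, edgeR's adjusted p = 0.987 where 1.89% of tested genes passed) and flox normoxia lowest. The ends of its order differed by 1.26-fold (1.17 to 1.35), with an edgeR adjusted p of 0.000254 for KO hypoxia against flox normoxia, where 12.2% of tested genes passed. That comparison differs in genotype and oxygen at once and shares its libraries with those above. Mt1 and Mt2 also passed in it, with log2 fold changes of 0.40 ± 0.096 and 0.51 ± 0.119 and edgeR adjusted p-values of 0.0123 and 0.00999. Without flox normoxia replicate 1 neither passed (0.0819 and 0.0677).

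The make-up of the metallothionein pool was compared on the deposited RPKM, so its percentages depend on the gene lengths given above. Mt3 was 51.7 ± 3.4% of the summed Mt1, Mt2 and Mt3 RPKM in KO hypoxia (SD, n = 4) and 56.9 ± 0.145% in flox hypoxia (SD, n = 3). The KO libraries spanned 47.0 to 54.4% and the flox libraries 56.7 to 57.0%, without overlap. The difference in means was -5.20 percentage points (two-sided exact permutation p = 0.0857, adjusted over 4 comparisons 0.2), and the smallest p this design allows is 0.0286. In normoxia it was 54.3 ± 0.661% in KO and 57.7 ± 1.65% in flox brains, again without overlap, with the smallest exact permutation p that 3 against 3 allows (0.1). Mt2 was 15.8 ± 1.73% of Mt1 in KO hypoxia and 14.4 ± 0.792% in flox hypoxia, and the groups overlapped (exact permutation p = 0.229). The group means of this percentage lay between 14.4 and 15.8% in all 4 groups.

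**Figure D3:**
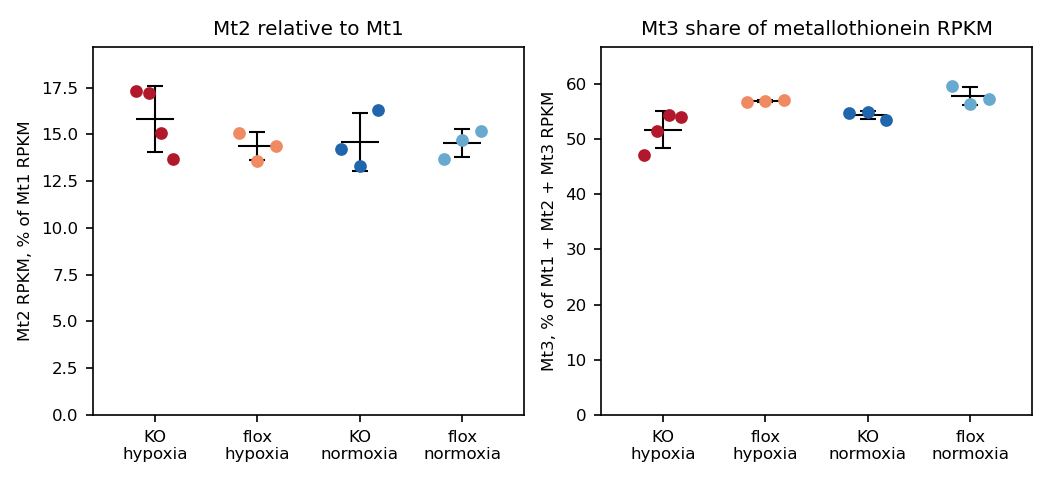
Mt2 as a percentage of Mt1 RPKM (left) and Mt3 as a percentage of summed Mt1, Mt2 and Mt3 RPKM (right) in each library, with group means and SD; axes start at 0. The Mt3 share is lower in KO than in flox libraries at both oxygen levels without overlap, and the Mt2 percentage overlaps between groups.

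Across the 13 libraries, log2 CPM of Mt1 and Mt2 went together with Pearson's r = 0.902 and Spearman's rho = 0.863, and r was 0.703 after the group means were removed. Mt1 and Mt3 had r = 0.655 and rho = 0.549, and r = 0.755 within groups. Mt2 and Mt3 had only r = 0.353 and rho = 0.297, and r = 0.197 within groups. Slc30a1 had r = 0.694 with Mt1 and 0.719 with Mt2, but 0.126 and 0.086 once group means were removed. These are descriptions, since the libraries share groups, and Mt1, Mt2 and Mt3 lie in a cluster on chromosome 8.

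Of 11918 genes eligible by level and symbol, those most like the mean of Mt1 and Mt2 were Akr1a1 (r = 0.951), an aldo-keto reductase, and Slc1a3 (r = 0.949), the astrocyte glutamate transporter GLAST. Then came Smo (0.935), the Hedgehog signal transducer, S100a10 (0.929), a partner of annexin A2, Thrsp (0.927), Fam107a (0.925), Samhd1 (0.924), a dNTP hydrolase, and Cyba (0.919), a subunit of NADPH oxidase. After group means were removed their r ran between 0.739 and 0.849. As a description of a gene picked for its likeness, Slc1a3 averaged 703 CPM in hypoxic KO, 550 in hypoxic flox, 604 in normoxic KO and 572 in normoxic flox brains. For Mt3 the closest were the ribosomal protein genes Rpl31 (0.948) and Rpl35 (0.937), the pseudogene Rpl31-ps12 (0.938) and the cytochrome oxidase subunit gene Cox6b1 (0.938), and their r within groups was 0.934 to 0.956. KO hypoxia replicate 4 and KO normoxia replicate 1 were the highest libraries for Mt3, Rpl31 and Cox6b1. Each was also the highest of its group for Mt1 (167 and 148 CPM). For Slc30a1 the closest were Slc16a1 (0.923), the lactate transporter MCT1, Eno1 (0.919), a glycolytic enzyme, Sparc (0.918) and Bsg (0.917), the MCT1 partner basigin, with r within groups of only 0.312 to 0.529.

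**Figure D4:**
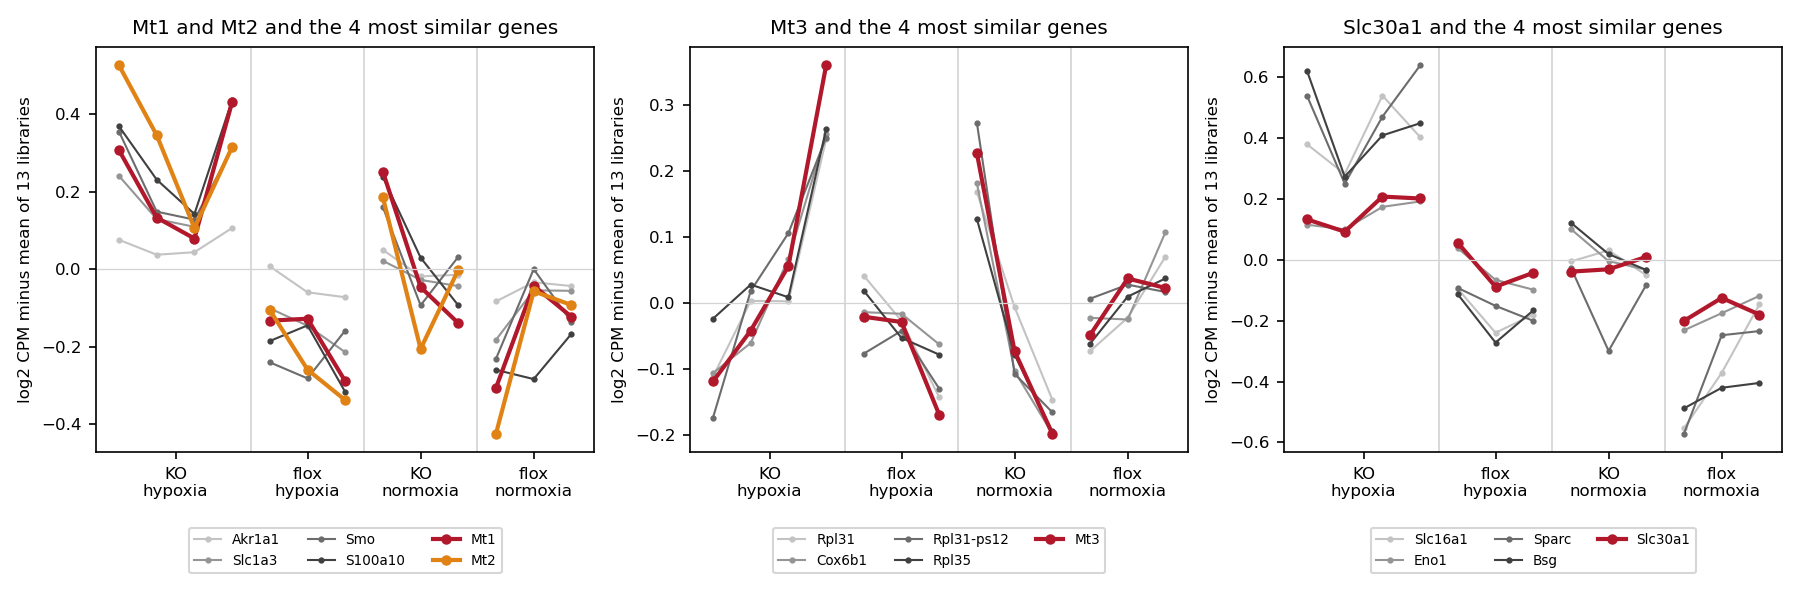
Log2 CPM minus the mean of 13 libraries, by library within group, for the 4 genes (thick lines) and their 4 most similar genes each (grey); lines join libraries of a group only to guide the eye. Mt3 and its similar genes share their highest libraries, KO hypoxia replicate 4 and KO normoxia replicate 1.

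Of 22 other zinc transporters tested, 2 rose and 0 fell in KO against flox hypoxia, with a median log2 fold change of 0.00, against -0.01 over all genes. That count is near the share of all tested genes that passed (9.06%). Slc39a1, the importer ZIP1, rose by 0.35 ± 0.061 (edgeR's adjusted p = 0.00157), with 39.7 ± 2.13 CPM in KO hypoxia and 31.1 ± 2.29 CPM in flox hypoxia. Slc39a12, the importer ZIP12, rose by 0.32 ± 0.069 (adjusted p = 0.00739) and was also higher in KO normoxia, by 0.38 ± 0.073 (edgeR's adjusted p = 0.00956). Slc30a10, a manganese exporter of the same family as ZnT1, did not pass at 0.18 ± 0.06 (edgeR's adjusted p = 0.0733).

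Of 16 tested genes for MTF-1 and the handling of other metals, 5 rose and 0 fell in KO against flox hypoxia, with a median of 0.18, where 6.78% of all tested genes rose. Mtf1 itself had 32.1 ± 1.63 CPM in KO hypoxia and 34.4 ± 1.35 CPM in flox hypoxia, a log2 fold change of -0.10 ± 0.062 (edgeR's adjusted p = 0.378). Those that rose handle iron or copper: Cp, the ferroxidase ceruloplasmin, by 1.24 ± 0.199, Slc40a1, the iron exporter ferroportin, by 0.87 ± 0.108, Ftl1, ferritin light chain, by 0.50 ± 0.114, Slc31a1, the copper importer CTR1, by 0.50 ± 0.083 and Atox1, a copper chaperone, by 0.44 ± 0.128. Their edgeR adjusted p-values ran between 0.000115 and 0.0407. Without KO hypoxia replicate 1, 4 rose.

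Genes linked to known metallothionein inducers were counted in the same comparison, where 6.78% of all tested genes rose and the median over all genes was -0.01. The lists hold regulators and receptors, such as Nr3c1, Nfe2l2, Keap1 and Il6st, as well as targets. Of 17 genes in the glucocorticoid list 3 rose in KO against flox hypoxia (median 0.01). Among them was Cdkn1a, a cell-cycle inhibitor, by 0.99 ± 0.157 (edgeR's adjusted p = 0.000762), while Klf9 (-0.11) and Per1 (-0.40) did not pass. Of 11 NRF2 oxidative stress genes 3 rose (median 0.12). They were Nfe2l2, which encodes NRF2, by 0.69 ± 0.078, Slc7a11, the cystine importer, by 0.50, and Hmox1, heme oxygenase, by 1.91 ± 0.419. The KO hypoxia libraries averaged 14.8 ± 12.2 CPM for Hmox1. Srxn1 (-0.063, edgeR's adjusted p = 0.454) and Gclc (-0.058, 0.463) did not pass. Of 14 gp130 and STAT3 genes 6 rose (median 0.49), including Osmr, the oncostatin M receptor, by 1.38 ± 0.122 and Stat3 by 0.46 ± 0.058 (edgeR's adjusted p = 8.72e-06 and 0.000123). Junb (-0.49, edgeR's adjusted p = 0.284) and Lifr (-0.11, 0.322) did not pass. Lcn2 was among those that rose, at only 2.75 ± 4.83 CPM in KO hypoxia (edgeR's adjusted p = 0.048). The summed level of this list overlapped, at 461 to 491 CPM in KO hypoxia and 470 to 485 CPM in flox hypoxia. Of 14 targets of hypoxia-inducible factor 6 rose (median 0.21), among them Slc2a1, the glucose transporter GLUT1, by 1.06 ± 0.142 (edgeR's adjusted p = 0.000201). Aldoa (0.06) and Pgk1 (0.11) did not pass. None of these lists had a gene that passed as lower. Without KO hypoxia replicate 1 the counts were 2, 3, 4 and 5. Some genes stand in more than 1 list, so the lists are not independent. Slc2a1 is also counted below as an endothelial marker, and Cp as a reactive astrocyte marker. Of the gp130 and STAT3 genes, Osmr, Lcn2, Serpina3n and Timp1 are also reactive astrocyte markers. Pdgfra is in both the meningeal fibroblast and the oligodendrocyte lists.

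Cell type markers moved with the same comparison. Of 14 reactive astrocyte markers 11 rose in KO against flox hypoxia (median 1.31), and their summed level was 1380 to 2030 CPM in hypoxic KO, 530 to 575 in hypoxic flox, 1340 to 1470 in normoxic KO and 570 to 639 in normoxic flox brains. Gfap, the astrocyte filament, rose by 1.67 ± 0.147 (edgeR's adjusted p = 8.43e-06). All 14 endothelial markers rose (median 1.04), with sums of 715 to 1130 CPM in KO hypoxia and 375 to 410 CPM in flox hypoxia, and so did 10 of 11 microglial markers. In KO against flox normoxia 13 of 14 endothelial markers rose as well (median 1.03). Their sums were 546 to 621 CPM in KO and 280 to 321 CPM in flox brains. In that comparison 6 of 14 reactive astrocyte, 5 of 10 pericyte and smooth muscle and 5 of 7 erythroid markers rose. So did 1 of 8 meningeal fibroblast, 1 of 11 microglial and 1 of 14 homeostatic astrocyte markers. There 1 homeostatic astrocyte marker fell, and so did 1 of 9 oligodendrocyte markers (list median -0.30). Of all tested genes 2.33% passed there. Of 7 erythroid markers 6 rose in KO against flox hypoxia (median 3.65), with sums of 3630 to 17600 CPM in KO hypoxia and 664 to 870 CPM in flox hypoxia. Of 10 pericyte and smooth muscle markers 6 rose (median 0.76), and of 8 meningeal fibroblast markers 5 rose (median 0.76). None of 8 choroid plexus markers passed (median -0.20), and none of 9 oligodendrocyte markers did (median -0.02). Of 5 ependymal markers 2 rose (median 0.40). Of 14 homeostatic astrocyte markers 4 rose and 1 fell (median 0.10), with overlapping sums of 7300 to 7850 CPM in KO hypoxia and 7660 to 7880 CPM in flox hypoxia. S100b rose by 0.64 ± 0.094 and Slc1a2, a glutamate transporter, fell by 0.23. Of 10 neuronal markers 3 fell (median -0.10). Without KO hypoxia replicate 1, 9 reactive astrocyte, 14 endothelial, 6 erythroid, 6 pericyte and smooth muscle and 5 meningeal fibroblast markers rose. So did 7 microglial, 5 homeostatic astrocyte and 2 ependymal markers, while 3 neuronal markers and 1 homeostatic astrocyte marker fell. No marker of these lists was at 0 in any group, and the part of cell make-up in the levels of Mt1, Mt2 and Slc30a1 was not tested.

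**Figure D5:**
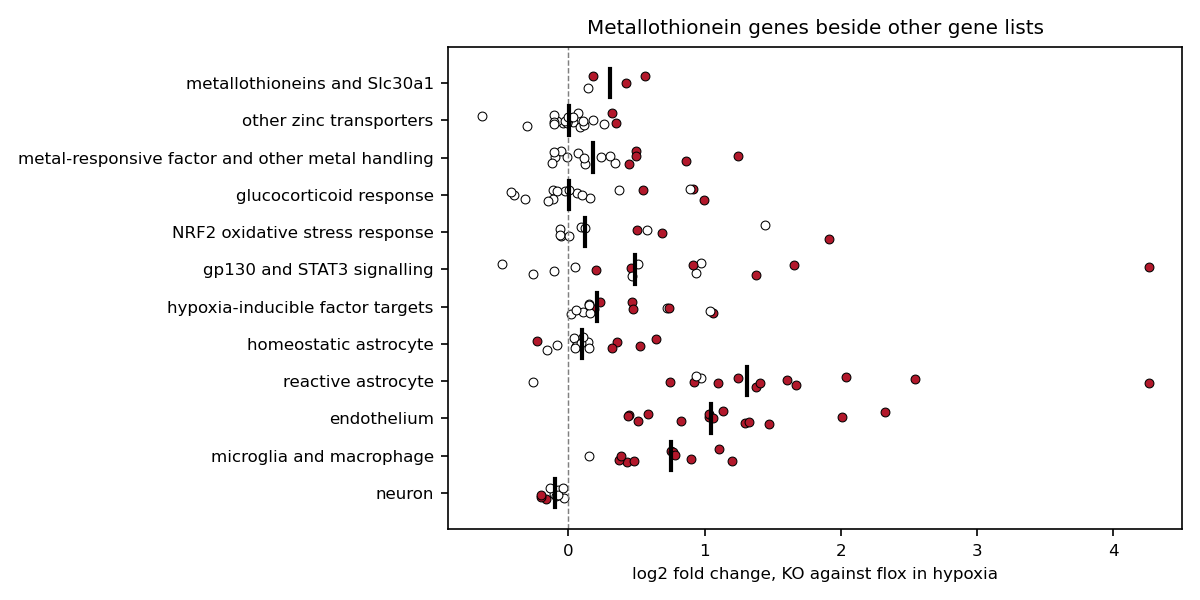
Log2 fold change in KO against flox hypoxia of each tested gene (points) in the metallothionein set and other lists; filled points passed edgeR's adjusted p of 0.05 and the black bar is the list median. Mt1, Mt2 and Slc30a1 (0.42, 0.56 and 0.18) lie below the medians of the reactive astrocyte (1.31), endothelial (1.04) and microglial (0.75) lists. They lie above the medians of the homeostatic astrocyte (0.10) and neuronal (-0.10) lists. Some cell marker lists are not shown, among them the erythroid list and the pericyte and smooth muscle list.

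Of 11 tested coding genes around the metallothionein cluster 1 passed as higher in KO against flox hypoxia (Nlrc5, log2 fold change 1.89, edgeR's adjusted p = 0.0012), with a median of 0.01. Of 14 tested around Slc30a1, edgeR called 0, and their median was -0.03. Over all tested genes 9.06% passed, so these few neighbours are near the background.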

How the data were processed

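Brain RNA of 13 libraries was sequenced from a stranded mRNA kit, from 50 ng RNA inputs whose integrity number exceeded 8.0, per the labels' protocols. The submitters' processing notes name HISAT2, edgeR and GRCm39. Which counter, annotation and strand setting were used is not given in the sources used here. Raw counts per gene and RPKM were deposited by the authors. Counts were tested, and RPKM served levels between genes, ratios and an alternative.

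Groups followed the labels. edgeR 4.0.16 (R 4.3.3) filtered genes by filterByExpr, scaled by TMM, fitted 1 mean per group over all 13 libraries and used the quasi-likelihood test. Ratios were compared by exact permutation tests on means. Symbols matched 52083 of 55416 IDs, and replicates differed beyond sampling noise (smallest chi-square per degree of freedom 4.44). The fitting was tested on simulated data. Alternatives were DESeq2 1.42.0, limma 3.58.1, other scalings and filters, a replicate block, a term for the Xist split, and leaving out each library.

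Named genes were the 4 genes, up to 4 passing genes per list with the largest change at a mean of at least 2 log2 CPM, up to 2 that did not pass, and the genes most like each by r. A few others (Slc30a10, Mtf1, Atox1, Lcn2, Slc1a2, Nlrc5) were chosen after their values were seen. The genes and lists were chosen with earlier results of these data known. Promoter sequences are RefSeq's on GRCm38.p6, a different build, used for no count.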

Additional observations from a re-analysis of the deposited data

How the results depend on the processing

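Of 196 values for the 4 genes in 5 comparisons under other tools, filters, scalings and terms, 192 kept their direction and side of the threshold. The replicate numbers do not pair the libraries: same-numbered pairs had r between -0.018 and 0.137, with 1 of 18 over 0.1. With a replicate block, Slc30a1 in KO against flox hypoxia was 0.17 (edgeR's adjusted p = 0.0864), Mt3 in the same comparison was 0.041 (0.856) and Mt3 in hypoxia against normoxia in KO turned to -0.024 (0.95). With the Xist-split term, Slc30a1 in KO against flox hypoxia was 0.16 (0.0822), and with DESeq2 Slc30a1 in hypoxia against normoxia in KO was 0.18 and passed (0.0151). The cause was not tested. Over 10 alternatives Mt1 in KO against flox hypoxia ran between 0.356 and 0.455 and Mt2 between 0.551 and 0.588, called in all.

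Where leaving out 1 library changed a call or a direction, or moved a value by over 1.5 times, the lowest and highest values are as follows. In KO against flox hypoxia Mt1 ran between 0.362 and 0.478 (called in 12 of 13) and Slc30a1 between 0.15 and 0.224 (10 of 13). In the same comparison Mt3 ran between 0.043 and 0.206. The interaction term ran between 0.162 and 0.362 for Mt1, 0.282 and 0.487 for Mt2, and 0.052 and 0.283 for Mt3. In KO against flox normoxia Mt1 ran between 0.062 and 0.26, Mt2 between 0.07 and 0.276, and Mt3 ran between -0.138 and 0.078. In hypoxia against normoxia in KO, Mt3 ran between -0.023 and 0.208, and the highest Slc30a1 value was 0.207. In hypoxia against normoxia in flox, Mt1 ran between -0.101 and 0.031 and Mt2 between -0.157 and 0.017. In KO hypoxia against flox normoxia Mt3 ran between -0.031 and 0.131. In KO normoxia against flox hypoxia Mt3 ran from -0.063 upward and Slc30a1 between -0.028 and 0.046. The log2 ratio of Mt2 to Mt1 ran between -0.078 and 0.07 in KO against flox normoxia and between -0.059 and 0.023 in hypoxia against normoxia in flox. The Mt3 share in that last comparison ran between -1.523 and 0.088 percentage points. Mt2, with the fewest counts, is the least precise of the 4 genes, and 3 or 4 libraries a group limit all tests.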
